A study of Mus musculus with 2 samples.

Results

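The genes described here are the 9 members of the proneural cascade that carries cortical progenitors from Neurog2 to Neurod6, namely Neurog1, Neurog2, Eomes, Neurod1, Neurod2, Neurod6, Hes6, Gadd45g and Btg2. They were chosen by symbol, and all 9 had a row among the 32285 genes of the tables. The data are droplet-based single-cell RNA sequencing of the dorsal telencephalon, the tissue that forms the cerebral cortex, at embryonic day 14.5. Both libraries are labelled WT and come from control animals of the EomesDot line, an Eomes-Cre mouse line, whereas the study's methods describe C57BL/6J embryos for this assay. Whether these WT embryos carried the Cre allele is not stated, which matters here because Eomes is a member. The titles number the libraries, which are called replicate 2 and replicate 4 here. No source says whether a library is 1 embryo or a pool, so p-values measure the spread between these 2 libraries only. With a single group of animals, the comparisons below are between cell classes within the libraries and follow the members from progenitor to neuron.

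Proneural factors are basic helix-loop-helix (bHLH) proteins that bind E-box sequences in DNA and switch on neuronal genes, while Notch signalling and Hes and Id proteins hold them back in progenitors. In the developing cortex, radial glial cells (RGCs) divide at the ventricle and produce intermediate progenitor cells (IPCs), which express Eomes (also called Tbr2) and divide to give glutamatergic neurons. Neurog1 and Neurog2 act at the start of this path. Neurod1, Neurod2 and Neurod6 are related bHLH factors that act later, and Hes6, Gadd45g and Btg2 are known to accompany proneural activity and the exit from the cell cycle.

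Of 4301 barcodes, 3122 cells were retained, with a median of 30810 UMIs (molecular tags, 1 per captured transcript) per cell in replicate 2 and 22826 in replicate 4. The libraries held 40267872 and 49422007 UMIs in all, and shared 3 barcodes, 1 of them among the retained cells. Cells were clustered without the 9 members and 31 further genes of the pathway, so no member took part in defining a class. From marker lists that hold no member, 784 cells were named RGC-like, 396 IPC-like, 578 newborn neuron-like (meaning excitatory), 763 excitatory neuron-like and 334 GABAergic neuron-like, names that were made for these data and need not match those of the study. The 4 lineage classes from RGC-like to excitatory neuron-like held 2521 cells, at similar shares in both libraries, while GABAergic neuron-like cells made up 7.09% of replicate 2 and 12.9% of replicate 4. The boundaries are graded, since the RGC-like cluster 9 (160 cells) had 6 of 8 IPC markers raised beside 10 of 12 RGC markers, and the IPC-like cluster 0 (172 cells) had 8 RGC markers raised beside 7 IPC markers. The IPC-like clusters 12 (142 cells) and 16 (82 cells) each had 6 newborn neuron markers raised beside 7 IPC markers. In cluster 12 the mean log2 ratio to the median cluster was 2.21 for the newborn neuron and 2.09 for the IPC markers. The 10 leading genes of cluster 12 held Unc5d and Slc17a6, a newborn and an excitatory neuron marker, beside Eomes and Neurog2, which were on no marker list.

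Levels are given in CPM, UMIs per 1000000 UMIs summed over the cells of a class in a library. Because the kit reads 3′ ends, a level is compared between classes and not between genes. In summed cells, more cells with a gene and more RNA per cell cannot be told apart in a level, so shares of cells are given separately further on.

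Neurog2 (ENSMUSG00000027967, chr3:127632733-127635636, coordinates of GRCm38.p6, which is mm10) encodes the main cortical proneural factor, and its level was highest in IPC-like cells, at 692 and 628 CPM in replicates 2 and 4. It stood at 157 and 139 CPM in RGC-like cells, 39.0 and 52.0 CPM in newborn neuron-like cells and 12.6 and 8.71 CPM in excitatory neuron-like cells. The 4 lineage classes did not overlap between libraries, and the order was IPC-like, RGC-like, newborn and excitatory. Neurog1 (ENSMUSG00000048904, chr13:56250478-56252180), its close relative, was present almost only in progenitors, with 195 and 244 UMIs in IPC-like cells (41.8 and 42.9 CPM) and 36 and 38 in RGC-like cells (3.9 and 3.19 CPM). In newborn neuron-like cells it had 0 and 2 UMIs and in excitatory neuron-like cells 0 and 1. Both neurogenins were thus at their highest in the same class, and both were next highest in RGC-like cells.

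Eomes (ENSMUSG00000032446, chr9:118478186-118486132) encodes the T-box factor that defines IPCs and was highest in IPC-like cells, at 529.99 and 709 CPM. Newborn neuron-like cells had 93.9 and 145 CPM and RGC-like cells 51.4 and 81.0 CPM, and excitatory neuron-like cells 5.75 and 4.36 CPM. Newborn neuron-like and RGC-like cells did not overlap, but their mean levels, 119.5 ± 36.3 CPM and 66.2 ± 21.0 CPM (SD, n = 2 libraries), differed by less than the sum of their SDs.

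Neurod1 (ENSMUSG00000034701, chr2:79452637-79456636) encodes a bHLH factor of newborn neurons and had 10.9 and 14.3 CPM in RGC-like cells, 109.6 and 139 CPM in IPC-like cells, 272 and 287 CPM in newborn neuron-like cells and 75.5 and 44.5 CPM in excitatory neuron-like cells. It was the only Neurod member with a level in excitatory neuron-like cells below that in IPC-like cells. Neurod2 (ENSMUSG00000038255, chr11:98325415-98329645), which acts in maturing excitatory neurons, had 13.4 and 10.6 CPM, 183 and 181 CPM, 566 and 525 CPM and 469.5 and 440.2 CPM in the same 4 classes. Neurod6 (ENSMUSG00000037984, chr6:55677818-55681263), a marker of cortical excitatory neurons often called Nex, had 8.78 and 17.7 CPM, 494 and 429.6 CPM, 962 and 743 CPM and 889.8 and 628 CPM. Its newborn and excitatory neuron-like levels overlapped between libraries, replicate 2 being above replicate 4 in both, while those of Neurod2 were apart but close. The IPC-like level of Neurod6 was already 462 CPM on average, against 13.3 CPM in RGC-like cells. It was uneven among the IPC-like clusters, at 223 CPM in cluster 0, 576 CPM in cluster 16 and 710 CPM in cluster 12.

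Hes6 (ENSMUSG00000067071, chr1:91411483-91414038), a Hes relative that opposes Hes1, Gadd45g (ENSMUSG00000021453, chr13:51846675-51848475), a stress-response gene linked to growth arrest, and Btg2 (ENSMUSG00000020423, chr1:134074865-134079155, also known as Tis21), an antiproliferative gene of neurogenic divisions, were all highest in IPC-like cells. Gadd45g stood at 126 and 111 CPM among RGC-like, 442 and 412 CPM among IPC-like, 34.1 and 41.4 CPM in newborn neuron-like and 23.7 and 22.0 CPM in excitatory neuron-like cells. Btg2 had 62.1 and 58.7 CPM, 182 and 184 CPM, 29.95 and 37.8 CPM and 12.6 and 10.8 CPM. Hes6 had 80.5 and 82.0 CPM, 262 and 254 CPM, 47.3 and 54.0 CPM and 33.8 and 40.1 CPM. The 3 genes shared the order of Neurog2, with RGC-like cells the second class. In GABAergic neuron-like cells, which should lack the dorsal factors, the neurogenins, Eomes and the Neurod genes were at 0 to 5.15 CPM on average, whereas Hes6, Gadd45g and Btg2 stood at 52.8 ± 24.0 CPM, 49.6 ± 28.1 CPM and 21.5 ± 21.0 CPM. Outside the lineage, Cajal-Retzius-like cells (54 cells), an early glutamatergic type, had summed levels of Eomes at 108 and 45.1 CPM and of Neurod6 at 119 and 35.4 CPM. The Eomes UMIs lay in 12 of 21 and 6 of 33 cells, and those of Neurod6 in 4 of 21 and 8 of 33 cells.

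**Figure D1:**
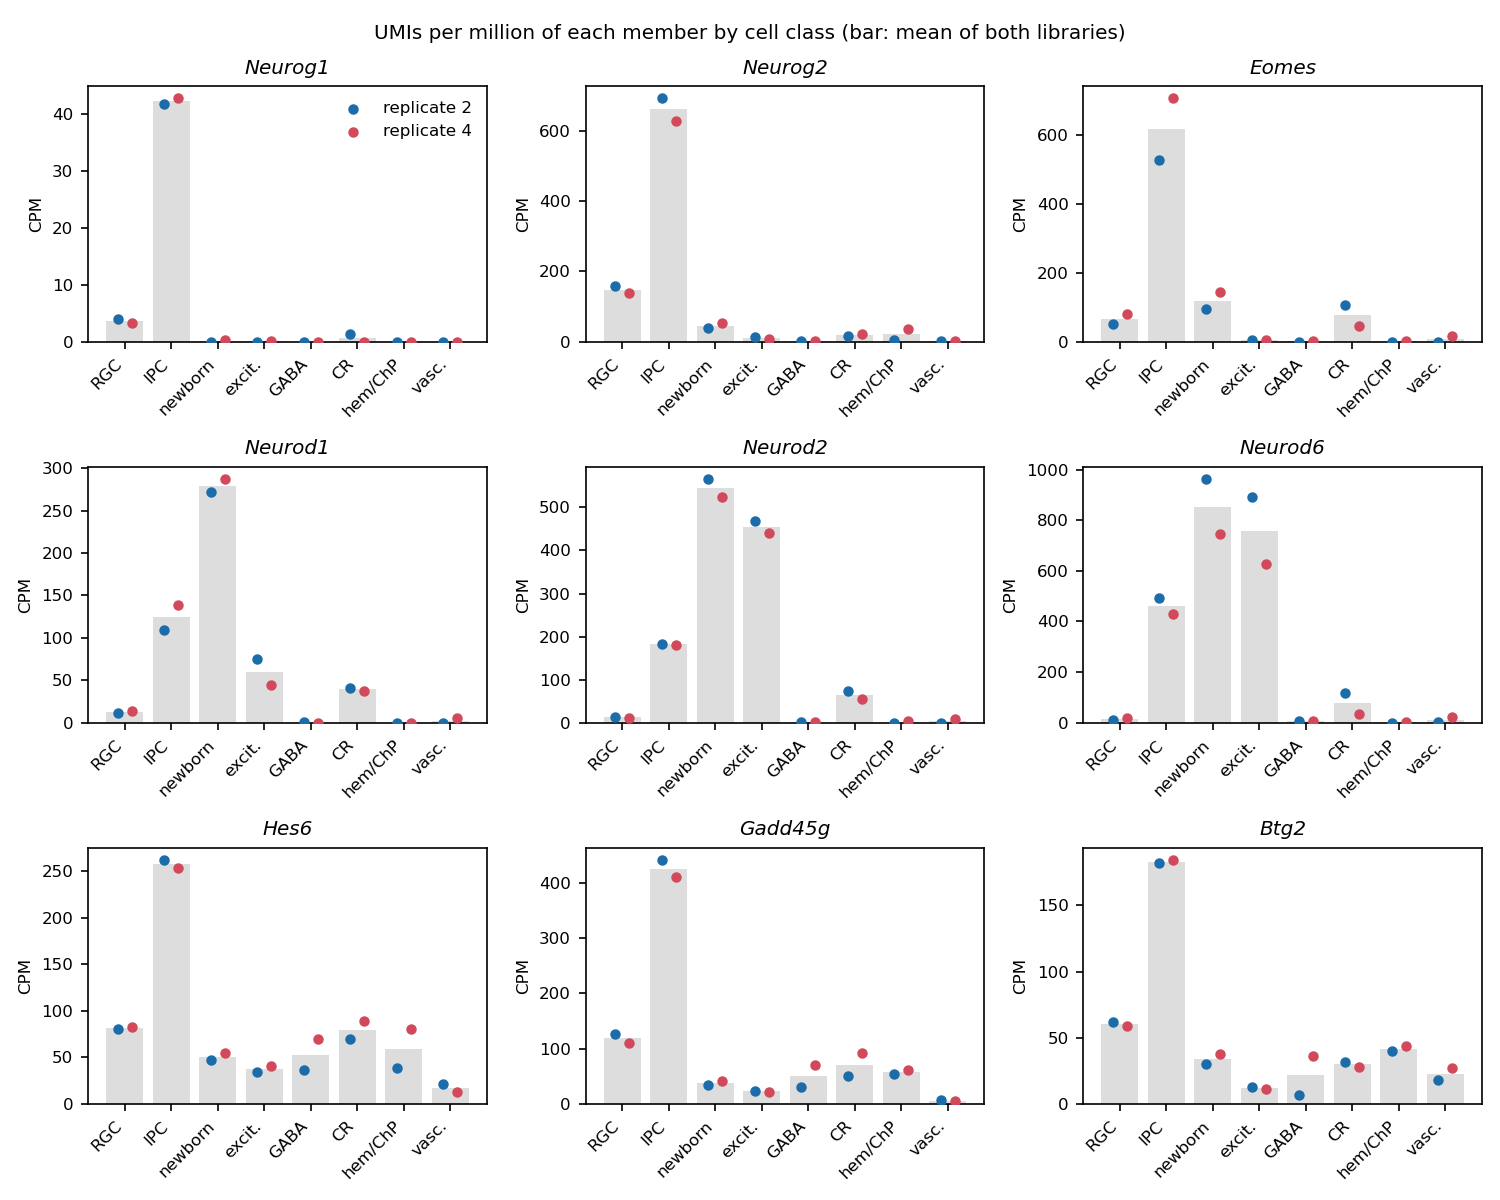
Level of each member (CPM, own vertical scale from 0 in each panel) in 8 cell classes, with 1 point per library and grey bars at the mean of both. The panels of Neurog1, Neurog2, Eomes, Hes6, Gadd45g and Btg2 are highest in IPC-like cells, Neurog2 at 660.1 CPM on average, and the 3 Neurod panels in newborn neuron-like cells.

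The sequences just before the start sites of Neurod1 and Neurod2 are shown because the members that encode bHLH factors bind E-box letters, and these are the 2 of the 9 members with such letters in this window. The 250 bases before each gene's start were taken from RefSeq (GRCm38.p6), and all 9 members matched by symbol. Both strands were searched for CAGATG, which reads CATCTG on the other strand, and for the palindrome CATATG, letters often given for Neurog and Neurod factors. The matches do not overlap. Hes6 has 2 annotated starts, and neither window held a match. Neurod1 is shown at chr2:79456637-79456886 and Neurod2 at chr11:98329646-98329895, both on the minus strand, 5′ to 3′ with the matches in capitals.
Neurod1: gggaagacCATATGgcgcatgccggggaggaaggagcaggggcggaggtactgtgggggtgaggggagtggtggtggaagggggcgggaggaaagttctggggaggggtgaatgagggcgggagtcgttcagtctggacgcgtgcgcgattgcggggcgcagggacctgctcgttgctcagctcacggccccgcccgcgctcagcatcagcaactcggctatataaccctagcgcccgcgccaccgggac
Neurod2: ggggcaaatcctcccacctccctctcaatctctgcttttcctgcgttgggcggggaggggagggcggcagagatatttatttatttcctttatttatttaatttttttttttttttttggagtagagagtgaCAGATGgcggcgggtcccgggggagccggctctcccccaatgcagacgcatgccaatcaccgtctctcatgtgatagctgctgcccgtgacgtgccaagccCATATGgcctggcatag
The Neurod1 match was CATATG, from 242 to 237 bases before the start. Neurod2 had CAGATG from 118 to 113 and CATATG from 17 to 12 bases before it. Of 32851 RefSeq promoters, 17.3% held at least 1 of the motifs (14.4% CAGATG and 3.46% CATATG), so the members' count of 2 in 9 stood near that of promoters in general. A match is a description of letters and does not show binding.

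Between RGC-like and IPC-like cells, all 9 members rose. edgeR's quasi-likelihood test on UMI counts summed per class and library called 4434 of 15879 genes at an adjusted p (Benjamini-Hochberg over all genes tested) under 0.05, 13.4% of the tested genes higher and 14.6% lower. All 9 members passed the filter on low counts in this fit, Neurog1 through its progenitor counts alone. The genes other than the members include those that defined the classes. Successive comparisons share the sums of a class and are not independent of each other. Log2 fold changes are given with their SE.

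The largest log2 fold changes were those of Neurod6 and Neurod2. From the levels given above Neurod6 had a log2 fold change of 5.20 ± 0.60, adjusted p = 4.48e-05, with the library values further apart (5.86 and 4.62) than for any other member. Neurod2 rose by 4.02 ± 0.33, adjusted p = 3.76e-06, Neurog1 by 3.67 ± 0.35, adjusted p = 5.26e-05, Neurod1 by 3.38 ± 0.33, adjusted p = 1.92e-05, and Eomes by 3.31 ± 0.45, adjusted p = 0.000174. The smallest rises were 2.25 ± 0.30, adjusted p = 0.000157 for Neurog2, 1.94 ± 0.27, adjusted p = 0.000197 for Gadd45g, 1.76 ± 0.26, adjusted p = 0.000332 for Hes6, and 1.69 ± 0.34, adjusted p = 0.00276 for Btg2. The median over members was 3.31, against -0.05 over all genes tested. Cluster 9 held much of the members' RGC-like level. Without it, the RGC-like level of Neurod1 was 0.657 CPM in place of 12.6 CPM and that of Eomes 21.4 in place of 66.2 CPM, and the log2 fold changes to IPC-like cells became 7.50 for Neurod1, 4.94 for Eomes, 6.28 for Neurod2 and 3.56 for Gadd45g, an alternative added after the data had been seen. Cluster 12 held 904 of the 1300 IPC-like UMIs of Neurod1. In IPC-like cluster 0 Neurod1 was at 18.8 CPM, below the 62.1 CPM of RGC-like cluster 9. Neurod2 and Neurod6 were at 119 and 223 CPM in cluster 0, against 51.6 and 49.8 CPM in cluster 9. How far the rises depend on cluster 12 was not tested.

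Of the 31 other pathway genes, all tested, 15 of the 31 were called higher, 9 lower and 7 neither, with a median log2 fold change of 0.92. Both Notch ligands on the list were called higher, and Dll3 rose by 3.51 ± 0.40, adjusted p = 6.03e-05. Neurod4, a further bHLH activator, rose by 3.93 ± 0.61, adjusted p = 0.00102 and Myt1, a zinc finger factor of neuronal differentiation, by 3.48 ± 0.23, adjusted p = 1.84e-06. All 3 Notch targets were called lower, including Hes1, the main Notch-driven repressor of proneural genes, at -5.54 ± 0.50, adjusted p = 7.91e-06. The 4 Id genes encode inhibitors that sequester the partners of bHLH factors, and 3 of them were called lower and 1 higher. Id4 fell by 3.50 on the log2 scale (SE 0.60, adjusted p = 0.000881), and Id3 was called lower at 0.195 CPM in IPC-like against 25.3 CPM in RGC-like cells. Id1 was the other one called lower, and Id2, named after its values had been seen, rose by 1.85 ± 0.44, adjusted p = 0.0076. The 3 E proteins, the partners themselves, were called in neither direction.

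Between IPC-like and newborn neuron-like cells the members divided. Neurog2, Eomes, Hes6, Gadd45g and Btg2 fell, Neurod1 and Neurod2 rose, Neurod6 did not pass the test, and Neurog1 is given as values. Among all 15879 genes, 11.8% were called higher and 10.9% lower in newborn neuron-like cells, with a median log2 fold change of 0.00292 over all genes and -2.23 over the members. Neurog2 changed by -3.71 ± 0.33, adjusted p = 6.15e-06, and Gadd45g by -3.35 ± 0.29, adjusted p = 5.63e-06. Btg2 changed by -2.29 ± 0.36, adjusted p = 0.000457, Eomes by -2.23 ± 0.43, adjusted p = 0.00217, and Hes6 by -2.20 ± 0.27, adjusted p = 7.23e-05. Neurog1 had 2 UMIs in newborn neuron-like cells and passed the filter on low counts through its progenitor sums alone, so no call is read. The ratio of its summed levels was 309, with an exact 95% interval of 84.9 to 2556 that covers counting error only. Every library showed these directions. Neurod2 rose by 1.72 ± 0.29, adjusted p = 0.000742, and Neurod1 by 1.31 ± 0.29, adjusted p = 0.00619, a call that was lost at 0.87 (adjusted p = 0.0839) when cells above 5% mitochondrial UMIs were left out. For Neurod6 the difference was 1.02 ± 0.50, adjusted p = 0.17, with 1.12 and 0.95 in the libraries, and it was called in 4 of 13 alternatives.

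Of the 31 pathway genes, 8 of the 31 were called higher, 10 lower and 13 neither, with a median log2 fold change of -0.48. Bhlhe22, a bHLH factor of postmitotic cortical neurons, rose by 3.13 ± 0.31, adjusted p = 3.87e-05, Nhlh2 by 2.13 ± 0.36, adjusted p = 0.0015, and Tbr1, the T-box relative of Eomes expressed in early neurons, by 1.71 ± 0.20, adjusted p = 4.98e-05. Neurod4, which had risen with the members into IPC-like cells, changed by -4.81 ± 0.69, adjusted p = 0.000701, and the Notch target Hes5 by -3.26 ± 0.92, adjusted p = 0.023.

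From newborn to excitatory neuron-like cells Neurog2, Eomes, Neurod1 and Btg2 fell, and no member rose. Of all genes, 11% were called higher and 6.57% lower in excitatory neuron-like cells, and the median log2 fold change was 0.05 over all genes and -1.32 over the members. Eomes had 93.9 and 145 CPM and then 5.75 and 4.36 CPM, a log2 fold change of -4.52 ± 0.51, adjusted p = 7.06e-05. Neurod1 changed by -2.18 ± 0.30, adjusted p = 0.000368, Neurog2 by -2.05 ± 0.33, adjusted p = 0.000819, and Btg2 by -1.49 ± 0.37, adjusted p = 0.0134. Neurod1 was therefore the member that rose into newborn neuron-like cells and fell after them. Neurod2 and Neurod6, the genes known from mature excitatory neurons, differed by -0.22 ± 0.28, adjusted p = 0.667 and by -0.12 ± 0.49, adjusted p = 0.912, respectively, and their sign turned in 2 and 4 of 13 alternatives. Hes6 (-0.41 ± 0.27, adjusted p = 0.341) and Gadd45g (-0.68 ± 0.28, adjusted p = 0.12) did not pass, Gadd45g passing in 8 of 13 alternatives. No fold is given for Neurog1, at 2 UMIs against 1. Of the 31 pathway genes, 2 of the 31 were called higher, 13 lower and 16 neither, with a median log2 fold change of -0.60. Rest, a repressor of neuronal genes, rose by 1.83 ± 0.18, adjusted p = 2.09e-05, and Tbr1 by 0.79 ± 0.19, adjusted p = 0.0101. The bHLH genes Nhlh1 and Nhlh2 fell, at -2.40 ± 0.25, adjusted p = 5.75e-05 and -2.25 ± 0.35, adjusted p = 0.00111, and Neurod4 was called lower with no UMI in excitatory neuron-like cells.

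GABAergic neuron-like cells, whose origin is the subpallium, give the members' levels in another lineage. Against excitatory neuron-like cells, 11% of all genes were called higher and 13.7% lower in GABAergic neuron-like cells. Neurog1, Neurog2, Neurod1 and Neurod2 were too low in the GABAergic sums for the filter on low counts and passed it through other classes. They are therefore given as values, and no count over the members is read. Neurod2 stood at 1.65 and 1.34 CPM in GABAergic neuron-like cells, against 469.5 and 440.2 CPM in excitatory neuron-like cells. Neurod6 stood at 4.96 and 5.34 CPM in GABAergic neuron-like cells, -7.37 ± 0.72, adjusted p = 1.18e-05. Neurod1 and Neurog2 had 2 and 3 UMIs in GABAergic neuron-like cells. The excitatory to GABAergic ratio was 166 with an exact 95% interval of 45.7 to 1368 for Neurod1. For Neurog2 it was 19.7 with an exact 95% interval of 6.67 to 96.1. Eomes, low in both classes, was not called (adjusted p = 0.0888). Neurog1 had no UMI in GABAergic neuron-like cells, and its level in IPC-like cells was at least 78.5-fold higher, set against the 3 UMIs over both libraries that a count of 0 allows. The levels of the Neurod genes and Neurog2 were lower in GABAergic than in excitatory neuron-like cells in both libraries.

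The other 3 members did not share this pattern. Gadd45g was called higher in GABAergic neuron-like cells at 0.99 ± 0.29, adjusted p = 0.0245, but replicate 4 alone carried the difference, with 69.4 against 22.0 CPM there and 29.7 against 23.7 CPM in replicate 2, log2 differences of 1.43 and 0.11. The call was kept in 9 of 13 alternatives. Hes6 differed by 0.37 ± 0.28, adjusted p = 0.379. Btg2 differed by 0.83 ± 0.40, adjusted p = 0.16, with opposite signs in the libraries, -1.16 in replicate 2 and 1.52 in replicate 4. Cluster 13, which held 31 of the GABAergic neuron-like cells of replicate 2 and 168 of those of replicate 4, had 72.9% G1-like cells and levels of 93.4 ± 3.03 CPM for Gadd45g and 33.9 ± 23.1 CPM for Btg2, against 5.64 ± 5.7 CPM for Gadd45g in the other GABAergic neuron-like cluster. Cluster 13 also had 5 RGC markers raised beside 10 GABAergic neuron markers. Its part in these differences and in those of the pathway genes below was not tested. Of the 31 pathway genes, 12 of the 31 were called higher, 9 lower and 10 neither, with a median log2 fold change of 0.48. Id3 rose by 5.19 ± 0.49, adjusted p = 8.33e-06 and Hes5 by 3.79 ± 0.86, adjusted p = 0.0066. Bhlhe22, Tbr1 and Nhlh1, counted among the 9, were each at under 1 CPM in GABAergic neuron-like cells and passed the filter through other classes. They are given as values. Id3 and Hes5 were under 1 CPM in excitatory neuron-like cells, so neither the 12 nor the 9 is read as a result.

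Within the classes, the members differed between clusters that had been found without them. The values in this paragraph are mean levels in CPM ± SD over the 2 libraries and describe the clusters without a test. Cluster 9 was the RGC-like cluster with the highest level of every member, with Neurog2 at 306 ± 28.6, Gadd45g at 449.9 ± 55.5, Eomes at 251 ± 99.2 and Neurod1 at 62.1 ± 9.28. In the other 3 RGC-like clusters, of 119 to 267 cells, Neurog2 ranged from 53.0 to 202 CPM and Eomes from 9.72 to 43.4 CPM. The 3 IPC-like clusters separated early from late members. Cluster 0 had the highest levels of Neurog2 (1035 ± 36.3), Neurog1 (75.6 ± 11.4), Eomes (732 ± 169), Hes6 (381 ± 5.34), Gadd45g (685 ± 10.05) and Btg2 (249 ± 12.2) of any lineage cluster. Its Neurod1 level, 18.8 ± 0.533, was 3.1% of the highest cluster's, whereas its Neurod6 level, 223 ± 42.4, was 24.2%. Cluster 12 (142 cells) had Neurog2 at 430.1 ± 45.2, Neurod1 at 265 ± 2.22 and Neurod6 at 709.6 ± 140.2. Cluster 16 (82 cells, none of them G1-like) had Neurod6 at 576 ± 115 and Neurod1 at 121 ± 8.24.

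Among newborn neuron-like cells, Eomes and Neurod1 were highest in the smallest cluster and Neurod2 in the largest. Cluster 4 (55 cells) had Eomes at 417 ± 42.4 and Neurod1 at 607 ± 0.185, cluster 5 (242 cells) had 180.03 ± 43.4 and 336 ± 17.7, and cluster 11 (281 cells) had 2.72 ± 0.412 and 159 ± 20.9. Neurod2 went the other way, from 270.1 ± 54.2 through 468 ± 16.3 to 664 ± 25.6. Newborn neuron-like cells with much Eomes were therefore also those with much Neurod1, while Neurog2 was at 87.3 ± 1.76 in cluster 4. In the excitatory neuron-like clusters 2, 10 and 14 Neurod6 was at 525 ± 322, 783 ± 96.4 and 834 ± 195. Neurod2 was at 463 ± 39.7, 485 ± 18.8 and 419.6 ± 11.6 in the same clusters. The differences in Neurod6 were less than the sums of its SDs, so no order is read.

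**Figure D2:**
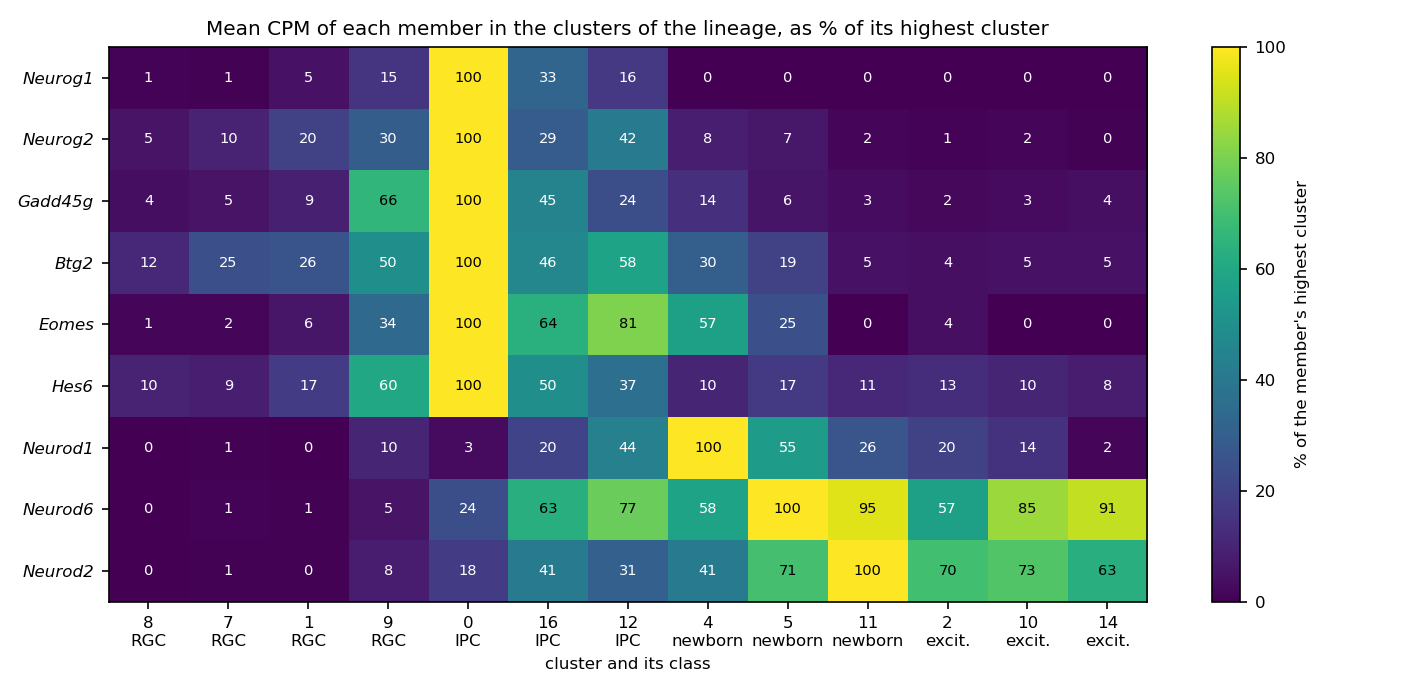
Mean level of each member over the 2 libraries in the 13 lineage clusters, as a percentage of that member's highest cluster (colour scale from 0 to 100%), with clusters grouped by class. Neurog2 and Eomes are at 100% in cluster 0, where Neurod1 is at 3.1% and Neurod6 at 24.2%.

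To order the members without classes, the 2521 lineage cells were placed on an axis from progenitor to neuron, the first principal component of variable genes without the members, the pathway list and cell cycle genes, and divided at the pooled deciles into 10 bins. The axis is an ordering of cells by expression and not a measured time, and it correlated weakly with the log10 UMIs per cell (r = 0.198 and 0.0999 in the libraries). The mean bin of each member, weighted by its level, gave the same order in both libraries. It was Neurog1 (3.63 ± 0.0856, mean ± SD over 2 libraries), Neurog2 (3.85 ± 0.0900), Gadd45g (4.06 ± 0.0967), Btg2 (4.14 ± 0.068), Eomes (4.35 ± 0.022), Hes6 (4.53 ± 0.0741), Neurod1 (6.09 ± 0.0932), Neurod6 (7.29 ± 0.0952) and Neurod2 (7.4 ± 0.0100). Gadd45g and Btg2 differed by less than the SD of Gadd45g, and Neurod6 and Neurod2 by little more than the SD of Neurod6, so the order within these pairs is hardly beyond the spread. All 9 members kept their place under 6 of the 7 alternatives that used both libraries, and with a marker score as axis Eomes and Hes6 changed places. Shares of the peak gave another order for 2 pairs. Neurog2 was at 25.7% and 14.2% of its peak in bin 2, where Neurog1 was at 9.96% and 6.34%. Hes6 was at 73.8% and 57.8% in bin 3 and 39.2% and 37.5% in bin 5. Eomes was at 44.2% and 28.1% in bin 3 and 90.1% and 81.5% in bin 5. The place of these 4 members therefore depends on the measure.

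The first 6 members had their highest level in bin 4 in both libraries and Neurod1 in bin 6. Neurog2 went from 179 and 113 CPM in bin 2 to 694 and 794 CPM in bin 4, and was at 40.3 and 55.4 CPM in bin 6. Eomes had 29.8 and 32.0 CPM in bin 2, 501 and 755 CPM in bin 4 and 451 and 615 CPM in bin 5. Set against its own peak it was later than Neurog2 on both sides, at 5.96% and 4.24% of the peak in bin 2 where Neurog2 was at 25.7% and 14.2%, and at 90.1% and 81.5% in bin 5 where Neurog2 was at 39.6% and 31.6%. Bin 4 held 73.3% and 68.0% IPC-like cells. Neurod1 was a narrow band, at 62.6 and 58.3 CPM in bin 4, 350.3 and 380 CPM in bin 6 and 54.6 and 40.7 CPM in bin 9. Neurod6 passed 50% of its own highest level in bin 5 in both libraries, the same bin as Neurod1 and 1 bin before Neurod2. It then stayed above 50% to the last bin, as Neurod2 did after bin 6. Neurod6 had 17.7 and 43.5 CPM in bin 3, 328 and 254 CPM in bin 4 and 781 and 611 CPM in bin 5. Neurod2 had 48.0 and 35.6 CPM, 147 and 125 CPM and 255 and 231 CPM in the same bins and its highest level in bin 7. In bin 5 Neurod6 was at 79.5% and 78.7% of its peak and Neurod2 at 40.8% and 36.4%, whereas both first passed 10% in bin 4, and in bin 3 Neurod6 was at 1.8% and 5.61% and Neurod2 at 7.68% and 5.6%. Which of these genes came first therefore depends on the share of the peak that is read.

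**Figure D3:**
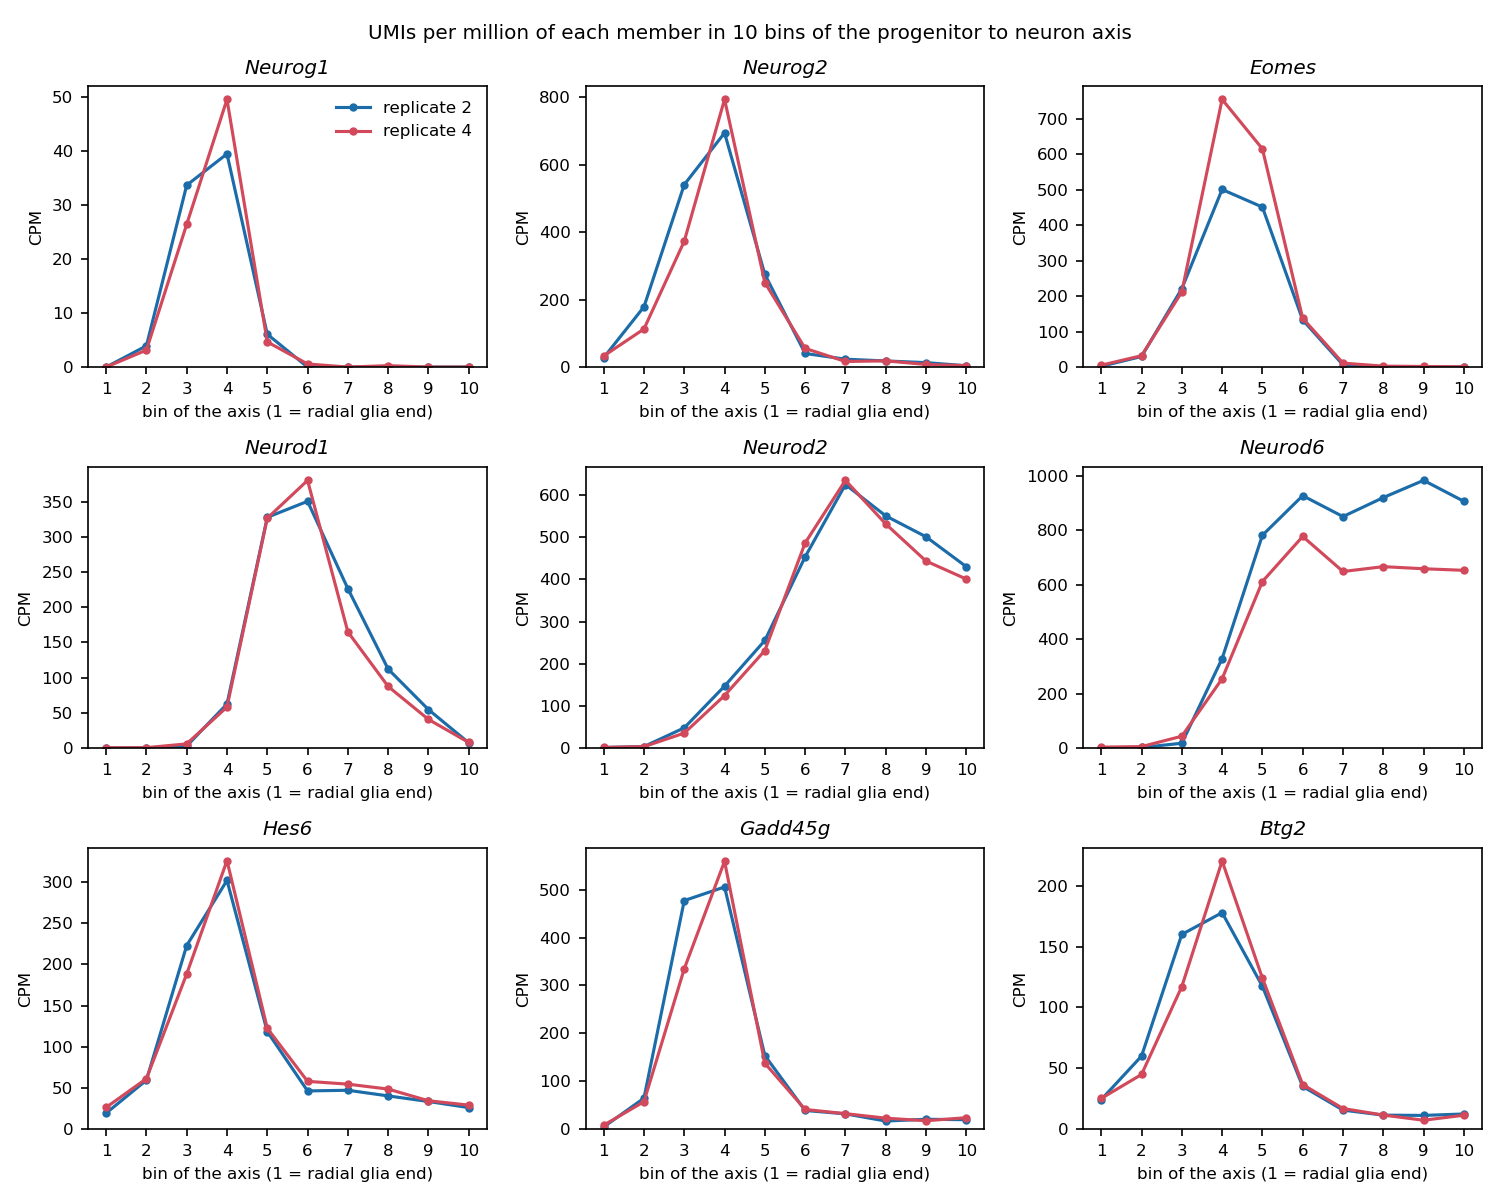
Level of each member (CPM, own vertical scale per panel) in 10 bins of cells from the progenitor end (bin 1) to the neuron end (bin 10), with 1 line per library. Neurog1, Neurog2, Eomes, Hes6, Gadd45g and Btg2 peak in bin 4 and Neurod1 in bin 6, while Neurod2 and Neurod6 stay high to bin 10.

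Over the 20 values of bins and libraries, the genes most like each member were taken by the Pearson correlation of log2(CPM + 10) among 5392 genes that reached 50 CPM in a bin of each library. These correlations are descriptions, since the points share cells, libraries and a single axis. The genes most like Neurog2 included Eml5 (r = 0.969) and Prox1. Neurog1 was most like Tmf1 (r = 0.934), Ebf2 and Mapkapk2, and Eomes most like Btbd17 (r = 0.978), Eif3f and Mfng. Stat3 was among the 3 for Hes6, Gadd45g and Btg2 alike, with Mapkapk2 and Ube2g2 for Hes6, Cnpy2 and Mapkapk2 for Gadd45g, and Rab8b for Btg2. Neurod1 was most like Arhgef25 (r = 0.986), Rere and 9630028H03Rik. Neurod2 went with Zbtb18 (r = 0.994), Olfm1 and Gpc2, and Neurod6 with Dcx (r = 0.993), the microtubule protein doublecortin of migrating neurons, Soga3 and Tubb3, a neuronal tubulin.

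RGC-like cells with at least 1 Neurog2 UMI held more Gadd45g, Eomes, Hes6 and Btg2 than RGC-like cells with none. There were 156 and 239 such cells in the libraries, against 144 and 245 without. Because Neurog2 chose the cells it was not tested, which leaves 8 members. The edgeR quasi-likelihood fit on 4 sums called 758 of 12950 genes, 2.69% of the tested genes higher and 3.16% lower. Neurog1, with 0 UMIs in both Neurog2-negative sums, and Neurod1, with 2 and 6 there, passed the filter on low counts through the Neurog2-positive sums alone, so they are given as values and no count over the members is read. With the library as a replicate block, 2061 genes were called, and Neurod6 was called in addition.

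Gadd45g had 10.2 and 5.89 CPM without and 213 and 194 CPM with Neurog2, a log2 fold change of 4.71 ± 0.19, adjusted p = 0.00052. Eomes had 4.06 and 3.8 against 86.6 and 142 CPM, 4.87 ± 0.33, adjusted p = 0.00203. Neither gene overlapped between the sums. Hes6 rose by 2.02 ± 0.10, adjusted p = 0.00079, Btg2 by 1.64 ± 0.10, adjusted p = 0.00186, and Neurod2 by 2.67 ± 0.26, adjusted p = 0.00508. Neurod1 had 0.508 and 1.14 CPM without and 18.7 and 24.7 CPM with Neurog2. Neurog1 had 74 UMIs in Neurog2-positive and none in Neurog2-negative cells, at least 19.0-fold higher by the same limit of 3 UMIs over both libraries. Neurod6 differed by 1.92 ± 0.44, adjusted p = 0.0579.

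The Neurog2-positive cells also differed in depth and phase. Their median was 32299.5 and 26914 UMIs against 26834 and 22622, and 42.3% and 38.1% were G1-like against 15.3% and 8.98%. Without cluster 9, 143 genes were called, among them Gadd45g at 4.02, Eomes at 3.71, Hes6 at 1.49 and Btg2 at 1.37. Neurod2 was then at -0.12 and not called. Among S-like and G2/M-like cells alone, 34 genes were called, among them Gadd45g at 3.85 and Hes6 at 1.22. Both of these alternatives were added after the data had been seen. Gadd45g and Hes6 were the members called higher in all 15 alternatives run. The Neurod2 call was kept in 8 of 14 alternatives, and its sign turned in 3. Of the 31 pathway genes, 13 of the 31 were called higher, 0 lower and 18 neither, with a median log2 fold change of 0.87. Myt1 rose by 3.68 ± 0.25, adjusted p = 0.00203. Nhlh1 and Nhlh2, counted among the 13, had 8.68 and 10.5 CPM against 0.254 and 0.0951 CPM. Both passed the filter on low counts through the Neurog2-positive sums alone. They are therefore given as values, and the count of 13 is not read as a result.

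The joint presence of members in single cells was read after thinning each cell to 5000 UMIs, which left out 191 shallower cells. At this depth a Neurog2 UMI was found in 30.8% and 29.5% of RGC-like and 81.3% and 79.1% of IPC-like cells in replicates 2 and 4, and in 0 of 83 cells and 1 of 234 cells of the GABAergic neuron-like class, which gives the background. Without thinning, a UMI was found in 52% and 49.4% of RGC-like cells, at a median of 30936 and 24677 UMIs per cell. It was found in 1.18% and 0.803% of GABAergic neuron-like cells, at 21645 and 12273. Neurod6 in RGC-like cells, at 3.26% and 7.09%, stood beside 1 of 83 cells and 8 of 234 cells of the GABAergic neuron-like, 0 of 20 cells and 4 of 36 cells of the vascular or meningeal-like and 0 of 30 cells and 0 of 18 cells of the hem or choroid plexus-like class, so that the share over all RGC-like cells was not clearly above that in classes that should lack it. The counts of 0 allow shares of up to 15%, 10% and 16.7% among the 20, 30 and 18 cells. The Neurod6 level was uneven among RGC-like clusters, at 34.8 and 64.8 CPM in cluster 9 and 2.23 to 12.4 CPM in the other 3. Intervals are exact 95% binomial intervals, cover counting error only, and describe cells of a library, which are not replicates.

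Among RGC-like cells, members were found more often in cells with a Neurog2 UMI than without. Eomes was found in 28.2% and 38.8% of Neurog2-positive cells (19.0 to 39.0% and 30.3 to 47.7%) and 4.71% and 3.57% of the others (2.18 to 8.76% and 1.8 to 6.3%). Gadd45g was found in 47.1% and 54.3% against 7.33% and 7.14%. The difference was smaller for Hes6, at 40% and 47.3% against 17.8% and 17.2%, and for Btg2, at 34.1% and 42.6% against 15.2% and 12.3%.

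In IPC-like cells the relation to Neurog2 turned for Neurod1 and Neurod6. The IPC-like clusters differed in these genes, as given above, and their part in the turn was not tested. Neurod1 was found in 19.0% and 33.0% of cells with a Neurog2 UMI (12.6 to 27.0% and 26.2 to 40.3%) and 55.2% and 50% of those without (35.7 to 73.6% and 35.2 to 64.8%), intervals that overlapped in replicate 4. Neurod6 was found in 68.3% and 70.3% against 93.1% and 89.6%. Neurod2 showed no such turn, at 54.0% and 50.5% against 51.7% and 62.5% with overlapping intervals in both libraries. Eomes was found in most cells of both kinds, 85.7% and 94.5% against 79.3% and 81.2%. Neurod1 and Neurod6 were nested in these cells. Of IPC-like cells with a Neurod1 UMI, 95% and 90.5% also held Neurod6, whereas of those with Neurod6 33.6% and 44.4% held Neurod1, and of those without Neurod6 4.76% and 13.6% did. In newborn neuron-like cells Eomes and Neurod1 went together, with Neurod1 in 82.2% and 81.0% of cells with and 49.1% and 52.9% of cells without an Eomes UMI. A gene with few UMIs per cell is missed more often, so these shares differ between genes also by their abundance.

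**Figure D4:**
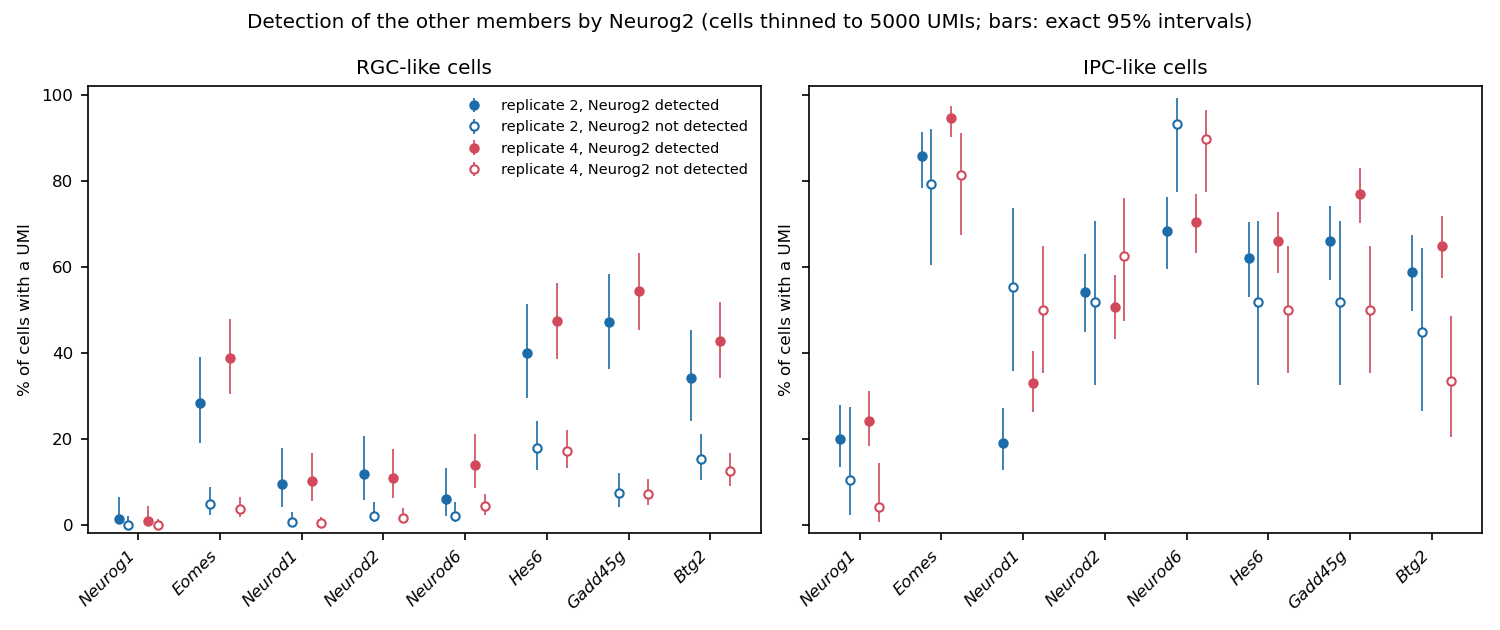
Share of cells (percent) with a UMI of each other member among cells with (filled) and without (open) a Neurog2 UMI, after thinning to 5000 UMIs, in RGC-like and IPC-like cells, by library, with exact 95% intervals. In RGC-like cells the filled points of Eomes and Gadd45g lie above the open ones without overlap of their intervals, and in IPC-like cells those of Neurod1 and Neurod6 lie below.

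Within IPC-like cells, members were also compared between dividing cells (S-like or G2/M-like) and G1-like cells, by phases assigned from gene lists that hold no member. The phases were spread unevenly over the IPC-like clusters, with no G1-like cell among the 82 of cluster 16 and 82.0% and 98.6% G1-like cells in clusters 0 and 12, whose member levels differed as given above, and the part of the clusters in this contrast was not tested. Neurog2 and Btg2 were lower and Neurod2 higher in dividing cells, and the other 6 members were not called. Of 12341 genes tested by edgeR's quasi-likelihood test, 10.5% were called higher and 5.52% lower in dividing cells, and the median log2 fold change was -0.05 over all genes and -0.44 over the members. Neurog2 differed by -0.69 ± 0.11, adjusted p = 0.00286, Btg2 by -0.59 ± 0.12, adjusted p = 0.0114, and Neurod2 by 0.43 ± 0.10, adjusted p = 0.0167. The Neurod2 call was kept in 6 of 12 alternatives and those of Neurog2 and Btg2 in 11 of 12, both being lost at 5% mitochondrial UMIs. With the library as a replicate block 5 members were called, a count that stands without the share of all genes called in that fit.

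The pooled contrast joined phases with unlike levels. Neurog2 had 803 and 643 CPM in S-like IPC-like cells (18 and 33 cells) and 768 and 742 CPM in G1-like ones, but 248 and 275 CPM in G2/M-like ones (24 and 40 cells). Neurog1 followed it, with 66.3 and 55.6 CPM in S-like and 6.95 and 18.2 CPM in G2/M-like cells. The late members had the opposite order between these phases, Neurod1 with 24.9 and 41.7 CPM in S-like and 134 and 144 CPM in G2/M-like cells, and Neurod6 with 197 and 144 CPM and 768 and 593 CPM. Neurod2, called higher when S-like and G2/M-like cells were pooled, was below its G1-like level in S-like cells, at 89.5 and 136 CPM against 168 and 159.9 CPM, and above it in G2/M-like cells alone, at 331 and 279 CPM. In RGC-like cells it was the G1-like cells, many of them in cluster 9, that held the members, with Neurog2 at 387 and 380.3 CPM against 32.7 and 61.6 CPM in S-like and 99.3 and 79.7 CPM in G2/M-like cells, and Eomes at 164 and 314 CPM against 8.48 and 14.4 CPM and 6.93 and 19.0 CPM. These levels by phase are descriptions and were not tested. Of the 31 pathway genes, 1 of the 31 were called higher, 3 lower and 27 neither, with a median log2 fold change of -0.10 between dividing and G1-like IPC-like cells. Nhlh1 changed by -1.36 ± 0.24, adjusted p = 0.00569, Lzts1 by -0.50 ± 0.12, adjusted p = 0.0256, and Cbfa2t2 by -0.43 ± 0.10, adjusted p = 0.0234.

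**Figure D5:**
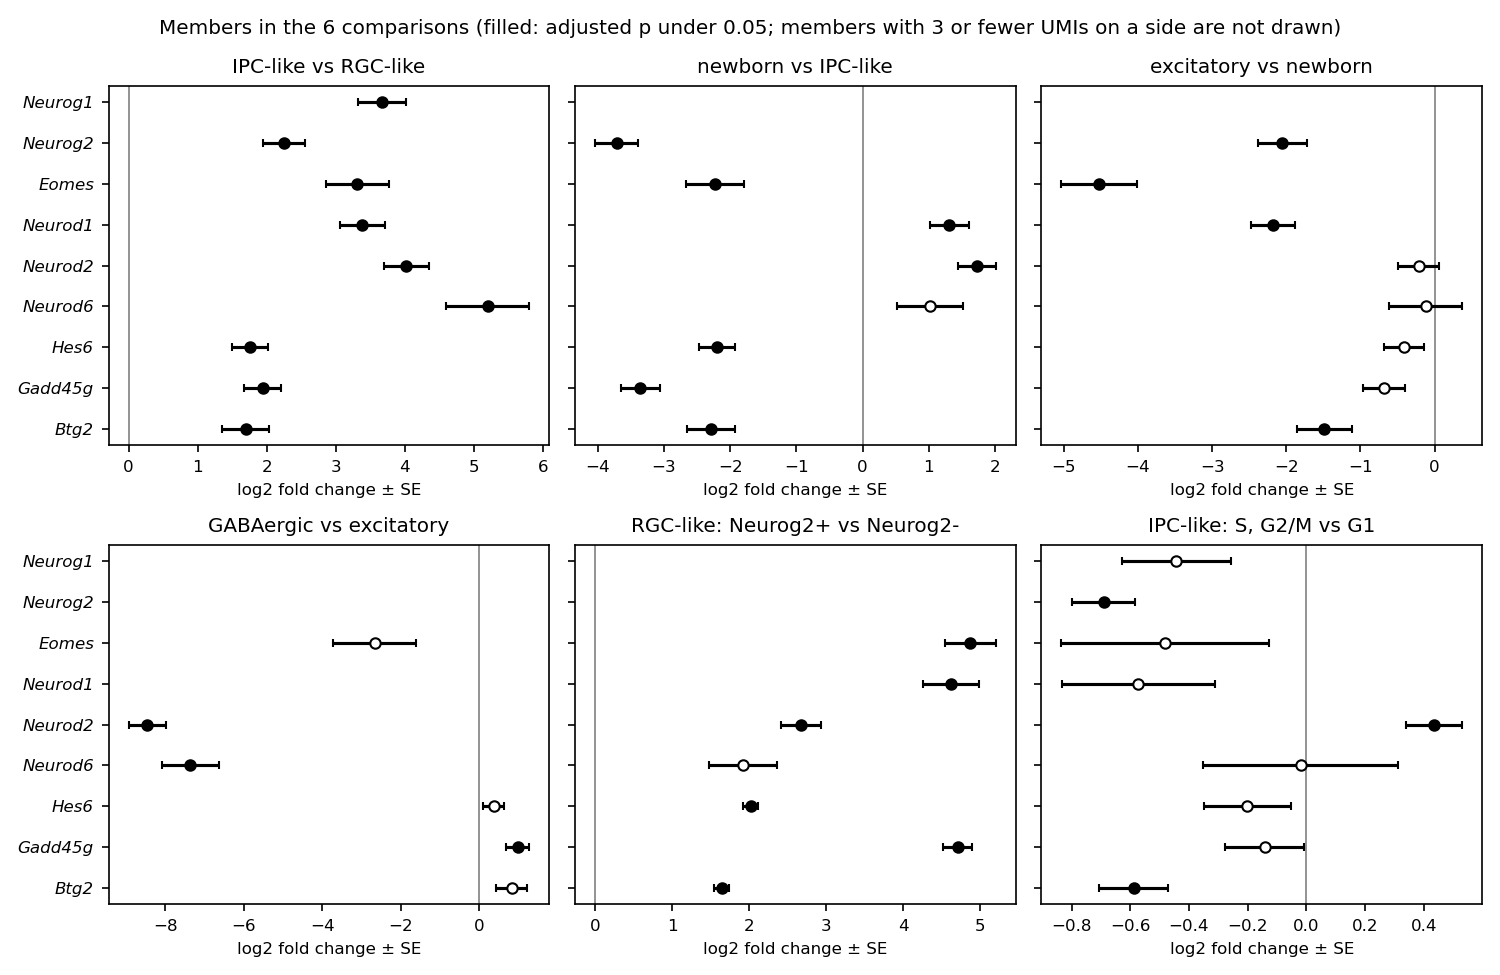
Log2 fold change of each member (horizontal axis, own scale per panel, bars ± 1 SE of the edgeR fits over 2 libraries) in the 6 comparisons, with filled points for an adjusted p under 0.05; members with 3 or fewer UMIs on a side are not drawn. All 9 points lie right of 0 from RGC-like to IPC-like cells, and in newborn neuron-like against IPC-like cells Neurod1 at 1.31 and Neurod2 at 1.72 lie opposite to Neurog2 at -3.71.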

How the data were processed

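Single-cell suspensions of 2 libraries were run on the 3′ v3.1 kit of 10x Genomics. Raw UMI counts for each gene and barcode were deposited by the authors, made with Cell Ranger 7.0.0 on mm10 (per the submitters' processing notes), without normalization. This version counts intronic reads unless told otherwise, and the setting is not given in the sources used here. Barcodes needed at least 1000 genes and no more than 10% mitochondrial UMIs, and doublets called by Scrublet (scanpy 1.11.5, Python 3.11.15) were left out (12 barcodes, 0.991%, in replicate 2 and 48, 2.44%, in replicate 4). Cells were scaled to 10000 UMIs and log-transformed, and 2000 variable genes without the 9 members and 31 pathway genes gave 30 principal components, a graph of 20 neighbours and 20 Leiden clusters at resolution 1, with no correction between libraries. Names needed at least 3 markers raised by a log2 ratio of 1 (with 10 CPM added) in 25% of cells. The scoring rule was set after first clusterings had been seen, and 101 cells stayed without a name. Phases came from score_genes_cell_cycle.

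UMI counts summed per class and library (at least 10 cells) were tested with edgeR 4.0.16 (R 4.3.3; TMM, filterByExpr, quasi-likelihood), with Benjamini-Hochberg adjustment over all genes and an adjusted p under 0.05 as threshold, all classes sharing 1 fit. The SE was taken as the log2 fold change over the root of F. DESeq2 1.42.0 was an alternative. On simulated counts, 97 to 100% of 200 genes changed by 2 on the log2 scale were recovered, with 7 to 15 false calls. The simulation had a fixed spread, no library effect and no changed gene at low counts. It does not measure recovery for members with few UMIs. Sums of 1 library come from the same library and are paired by it; deviations from class means correlated at a median of 0.384 over 6 pairs of lineage classes (0.314 to 0.424). Counting intervals cover counting error only. The members are named in every comparison, and from the pathway list the called genes of largest fold change, at most 3 a direction, if both libraries had the same sign, and some genes that fall under these rules are not reported here. Members and lists were chosen with earlier results of these data known.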

Additional observations from a re-analysis of the deposited data

Results flagged for a closer look

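Barcodes left out for having fewer than 1000 genes entered no comparison. Among 442 of them in replicate 2, 37.6% held a UMI of at least 1 member, and among 423 in replicate 4, 25.1% did, above the 0.679% and 0.709% that a count of 0 would have allowed. That limit is not a background for barcodes of this depth, and the source of these UMIs was not tested. Neurod2 and Neurod6 gave most of these UMIs, with 120 each in replicate 2 and 72 and 78 in replicate 4. The members' summed level there was 513 and 239 CPM, against 1359.7 and 1212 CPM in retained cells.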

How the results depend on the processing

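With 2 libraries per class the tests rest on few degrees of freedom, classes are rebuilt and graded at their borders, and no explanation of a difference was tested. All 9 members kept their call from RGC-like to IPC-like cells in 13 alternatives, and over all alternatives 152 main values and counts stayed as they were within the spread or 1.5 times, 12 gained and 15 lost calls, and 2 shares moved. Genes called from RGC-like to IPC-like cells were 2819 in place of 4434 when classes came from randomly divided UMIs of each cell and the test from the remainder. From newborn to excitatory neuron-like cells they were 1608 with doublets kept, 1672 with divided UMIs and 4328 when the fit held the compared classes alone, in place of 2786, and 7 members in place of 4 were called from 500 genes per barcode on or with genes scaled within each library. Counts of members called here and below stand without the share of all genes called under the same alternative. They are not read as results about the members. From newborn to excitatory neuron-like cells, Neurod2 turned to 0.14 at resolution 0.5 and 0.046 with divided UMIs, and Neurod6 to 0.14 with doublets kept, 0.31 and 0.040 at resolutions 0.5 and 2, and 0.21 with divided UMIs. Neurog1 in GABAergic against excitatory cells, at 1 UMI in all, went to 0 at 5% mitochondrial UMIs and 0.68 with DESeq2.

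For Neurog2-positive RGC-like cells, the genes called were 182 at 5% mitochondrial UMIs, 304 with doublets kept, 353 and 303 at resolutions 0.5 and 2, 396 with scaling within libraries, 76 with divided UMIs, 143 without cluster 9, 2061 without the filter on low counts, 1483 from 3 Neurog2 UMIs on and 34 in S-like and G2/M-like cells, in place of 758. Calls of members are not counted here, since Neurog1 and Neurod1 passed the filter on low counts through the Neurog2-positive sums alone. Neurod2 turned to -1.40 at resolution 0.5, -0.12 without cluster 9 and -0.24 in S-like and G2/M-like cells, and Neurod6 to -1.76 and -0.39 at resolutions 0.5 and 2 and -0.13 without cluster 9. In IPC-like phases the members called were 7 from 500 genes per barcode on, 1 at 5% mitochondrial UMIs, 6 at resolution 0.5, 7 with genes scaled within each library, 6 with divided UMIs and 5 without the filter, in place of 3. Neurod1 turned there to 1.11 from 500 genes on, 0.86 at resolution 0.5 and 0.56 with divided UMIs, and Neurod6 to 0.53, 0.12 at 5% mitochondrial UMIs, 1.28, 0.00077 at resolution 2 and 1.14. The cause of these changes was not tested.

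The library as replicate block gave 2061 genes for Neurog2-positive RGC-like cells and 5 members for the phases, and changed no other count of calls by over 1.5 times. Eomes among Neurog2-positive cells was found in 41.6% of RGC-like cells from 2 Neurog2 UMIs on (33.1% from 1 UMI) and in 90.1% of IPC-like cells after thinning (97.3% unthinned). Leaving out a library gives values with no test, since the classes then have 1 sum each.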
